A study of Rattus norvegicus with 9 samples.

Results

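The interferon response genes of the rat liver were taken as a named list of 33 interferon-stimulated genes and their regulators, and a gene was kept where its symbol was a row of both deposited count tables. In all, 32 of the 33 met this rule, out of 15565 genes that both tables hold. Xaf1 was in neither table and was not analysed here. The list was split by role into 4 sensors of foreign nucleic acid, 4 transcription factors, 7 genes of the ISG15 and ubiquitin ligase systems, 14 antiviral effectors and 3 other interferon-stimulated genes.

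Interferons are secreted proteins that warn cells of infection. Type I and type III interferons bind receptors that signal through JAK kinases to a complex that contains STAT2 and IRF9, and this complex binds the interferon-stimulated response element in front of its target genes. Interferon gamma acts through a second element, the gamma-activated site. The targets include the sensors and factors that start the response, so that the pathway reinforces itself, as well as proteins that block viral entry, translation and replication. In liver, hepatocytes, Kupffer cells and endothelial cells can all respond.

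RNA was measured in the livers of male rats of the SD strain, with 3 libraries in each of 3 groups. Rats of the normal diet group, which the labels call wt, were given a normal diet. Rats of the high-fat diet group, which the labels call the model group, were fed a high-fat diet for 8 weeks to produce non-alcoholic fatty liver disease. Rats of the SCL group received the plant Smilax china L. (SCL), and the labels call their tissue fatty liver. Their diet and their dose are not given, nor is the age of any rat. Nothing in the labels states that each library is a different animal, and the p-values below therefore cover only the spread between these 9 samples, technical or not.

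Libraries held 12413774 to 15521648 reads counted on genes. Markers of hepatocytes summed to 71041 to 228028 CPM (reads scaled to the effective size of the library) per library, and none of the 8 was at 0. The share of reads on mitochondrial transcripts differed widely within groups. It was 4.63%, 3.85% and 11.2% in the normal diet libraries, 4.90%, 18.8% and 44.1% in the high-fat diet libraries, and 10.97%, 49.0% and 7.04% in the SCL libraries, always in the order of replicates 1, 2 and 3. These values are repeated below where the members' levels go with them.

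To show the element through which these genes are known to be controlled, the sequence before each gene's start was searched in RefSeq's promoter entries of assembly GRCr8. Entries were found for 22 of the 32 members. Ddx58, Dhx58, Zbp1, Isg15, Usp18, Ifit1, Ifit2, Mx2, Oas2 and Rtp4 had no entry. The core of the interferon-stimulated response element, spelled GAAANNGAAA on either strand, occurred in the 250 bases before the start in 12 of the 22 members (54.5%), against 3.41% of all 33469 entries. The gamma-activated site, spelled TTCNNNGAA, which reads the same on both strands, occurred in 6 of 22 (27.3%) against 7.67% of all entries. The 2 spellings can overlap. A match describes letters in a window and not a bound site. The stretches below are shown because they belong to members of each role whose levels are described next. Each holds 80 bases upstream of the start, written 5′ to 3′ on the strand of the gene, with the matches to the response element core in capitals.
Irf7 (chr1:205800048-205800127, minus strand): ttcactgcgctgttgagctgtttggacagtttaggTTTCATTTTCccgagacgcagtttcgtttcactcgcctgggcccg
Ifih1 (chr3:67683983-67684062, minus strand): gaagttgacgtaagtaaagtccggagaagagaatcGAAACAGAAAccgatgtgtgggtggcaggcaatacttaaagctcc
Parp14 (chr11:78408023-78408102, plus strand): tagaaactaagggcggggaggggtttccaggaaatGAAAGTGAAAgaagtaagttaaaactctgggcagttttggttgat
Oas1a (chr12:41330386-41330465, plus strand): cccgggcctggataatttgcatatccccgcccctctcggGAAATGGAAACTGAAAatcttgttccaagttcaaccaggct
Ifit3 (chr1:241527246-241527325, plus strand): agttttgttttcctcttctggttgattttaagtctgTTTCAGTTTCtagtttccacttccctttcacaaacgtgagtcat
Ifi27 (chr6:128355193-128355272, plus strand): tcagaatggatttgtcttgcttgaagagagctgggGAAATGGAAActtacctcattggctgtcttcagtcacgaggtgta
Ifi44 (chr2:243303841-243303920, minus strand): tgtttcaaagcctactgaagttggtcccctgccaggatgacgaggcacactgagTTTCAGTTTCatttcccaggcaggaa

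In Irf7 and Ifit3 the core ran on the strand opposite to the gene, as it did in Ifi44. Oas1a held 2 overlapping copies. The factor genes Irf1 and Irf9 had no response element core in the window but held a gamma-activated site, and Stat2, Herc6, Trim25, Dtx3l, Parp9, Mx1, Oasl and Cmpk2 held neither spelling before the start.

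The members covered a wide range of levels. On the FPKM scale, which allows for gene length, Ifi27, a small membrane protein induced by type I interferon, was the most abundant with a median of 852 over the 9 libraries. It was followed by Bst2 (tetherin, which holds budding virus at the cell surface) at 241 and Ifitm3, which blocks viral entry at endosomes, at 107. Irf7 came next at 18.3 FPKM. The lowest medians were 0.68 for Dtx3l, 0.52 for Zbp1 and 0.21 for Oas2. All 32 members passed the filter on low counts.

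No member differed between groups at an adjusted p under 0.05 in any of the 3 comparisons. In high-fat diet against normal diet, edgeR's quasi-likelihood test called 0 of 32 members, beside 0.0083% of the 12041 genes tested. In SCL-treated against high-fat diet it called 0 of 32, beside 0.0% of genes. In SCL-treated against normal diet it called 0 of 32, beside 0.0083%. At an unadjusted p under 0.05 there was 1 member in the first comparison (4.32% of all genes), 1 in the second (1.95%) and 3 in the third (6.88%). DESeq2 called no member either, beside 0.416%, 0.00832% and 0.333% of genes. Its unadjusted p was under 0.05 for 1, 2 and 3 members, beside 5.92%, 2.8% and 9.6% of genes. The authors' deposited tables gave no member an adjusted p under 0.05, with the smallest value 0.586 for Ifi44 in high-fat diet against normal diet.

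At the median, members varied more than all genes tested, both over the 9 libraries and within groups. For the members, the median span from the lowest to the highest library was 1.72 on the log2(CPM + 0.5) scale, against 1.42 for all genes tested. The median within-group standard deviation (SD) was 0.59 for the members and 0.47 for all genes. SCL-treated replicate 2 was the lowest of the 9 libraries for 16 members and the highest for 0, whereas 19.3% of all genes were lowest there. High-fat diet replicate 1 was the highest for 11 members, beside 15.3% of all genes, and SCL-treated replicate 3 for 8, beside 13.0%.

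**Figure D1:**
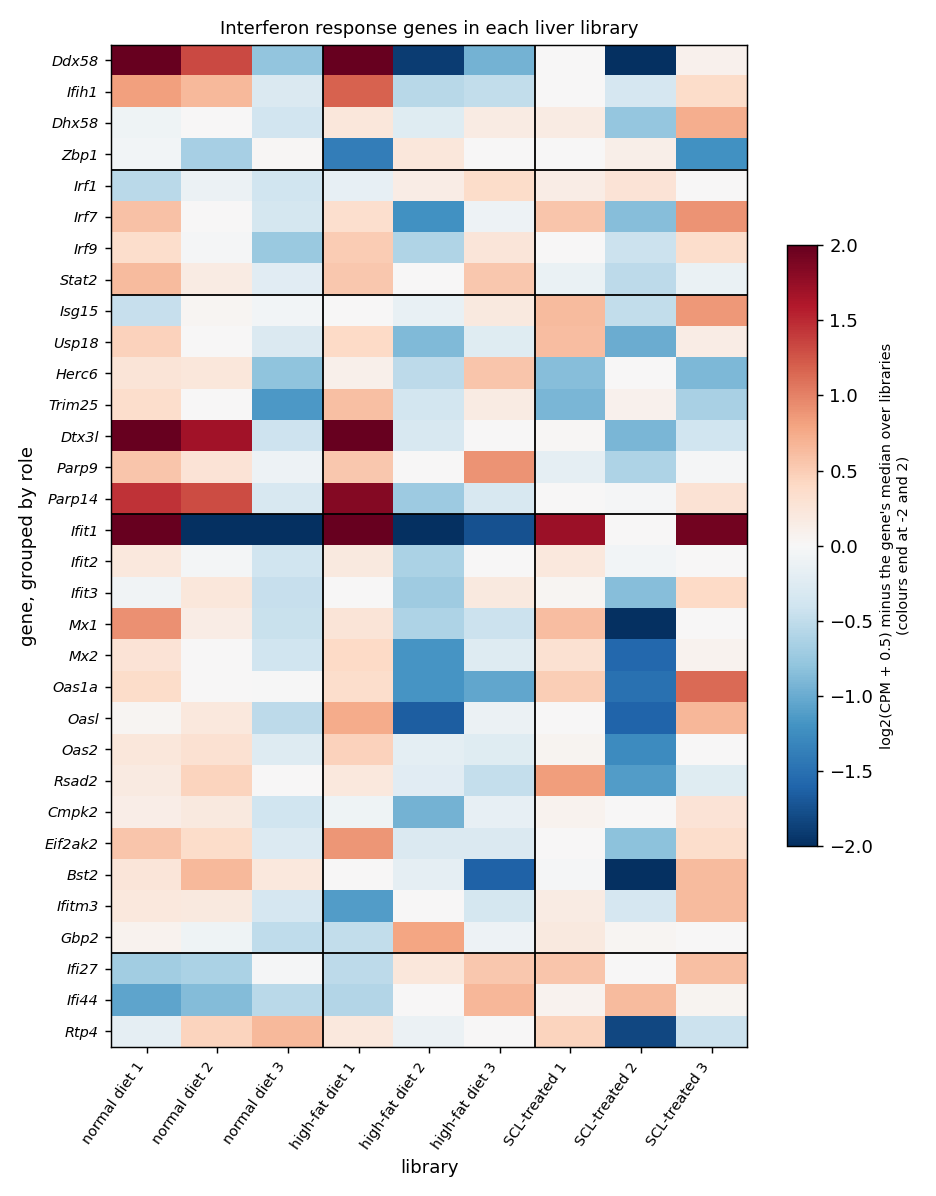
Each row is a member and each column a library; colour gives log2(CPM + 0.5) minus the gene's median over the 9 libraries, with red above and blue below, and black lines part the roles and groups. Normal diet replicate 3, high-fat diet replicate 2 and SCL-treated replicate 2 are blue in most rows, and Ifi27 and Ifi44 are red or pale in the last 2 of these.

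Within each group the same pattern of 1 low library was seen. Normal diet replicate 3 was the lowest of its group for 25 of 32 members, beside 40.02% of all genes. High-fat diet replicate 2 was the lowest of its group for 22 members, beside 27.5% of genes, and SCL-treated replicate 2 for 26, beside 42.2%. The median deviation of the members from their own medians was 0.25, 0.16 and -0.37 on the log2 scale in the normal diet libraries. It was 0.30, -0.34 and -0.11 in the high-fat diet libraries, and 0.07, -0.57 and 0.12 in the SCL libraries. All genes tested had a median deviation of 0 in every library on this scale. When libraries were scaled by their totals alone, SCL-treated replicate 2 was lowest for 17 members, beside 28.1% of all genes. High-fat diet replicate 1 was then highest for 15 members, beside 30.6% of all genes. With this scaling all genes tested had a median deviation of -0.20 and 0.21 in these libraries, in that order. The 3 libraries with the lowest member medians had mitochondrial shares of 11.2%, 18.8% and 49.0%, and the 3 with the highest had 3.85% to 4.90%. High-fat diet replicate 3, at 44.1%, was not among the lowest. The part of the mitochondrial share in the members' levels was not tested.

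Among the sensors, Ddx58, which encodes the RNA sensor RIG-I, varied most. It stood at 28.3, 16.6 and 3.47 CPM in the normal diet libraries, at 29.0, 1.33 and 3.04 CPM in the high-fat diet libraries and at 6.33, 0.291 and 6.76 CPM in the SCL libraries. Normal diet replicates 1 and 2 and high-fat diet replicate 1 were high, SCL-treated replicate 2 was close to the floor with 3 counts, and all 3 groups overlapped. Ifih1 (MDA5, the sensor of long double-stranded RNA) was high in the same 3 libraries, at 24.0, 21.1 and 31.0 CPM. Its other 6 libraries lay between 8.95 and 17.4 CPM. Dhx58 (LGP2, a regulator of both sensors) did not share this pattern, with 11.6, 12.3 and 9.25 CPM on normal diet, 14.4, 10.3 and 13.8 on high-fat diet, and 13.9, 6.99 and 20.5 with SCL. Zbp1, a sensor of Z-form nucleic acid, was low throughout at 0.261 to 1.81 CPM.

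Of the transcription factors, Irf1 was the member with the steadiest levels after Ifit2, with a span of 0.90 on the log2 scale. It stood at 12.7, 17.2 and 14.1 CPM on normal diet, 16.7, 20.7 and 24.2 on high-fat diet, and 20.7, 22.8 and 18.7 with SCL. The 3 SCL libraries lay above the 3 normal diet libraries, and the high-fat diet libraries overlapped both. Its 2 highest values were those of the libraries with 44.1% and 49.0% mitochondrial reads. Irf7, which drives the second wave of interferon production, was low in high-fat diet replicate 2 (13.4 CPM) and SCL-treated replicate 2 (17.3 CPM) and stood between 24.8 and 59.4 CPM elsewhere. Irf9, the DNA-binding part of the STAT complex, ranged from 11.1 to 27.0 CPM. Stat2, its partner, stood at 74.3, 54.0 and 40.8 CPM on normal diet, 69.6, 48.0 and 69.9 on high-fat diet, and 43.8, 33.4 and 43.9 with SCL. All 3 SCL libraries lay below the high-fat diet libraries for Stat2.

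In the ISG15 and ubiquitin ligase group, Dtx3l and Parp9, whose proteins form one complex, followed each other only in part. Both were lowest in SCL-treated replicate 2. Dtx3l was high in the same 3 libraries as Ddx58, at 16.3, 13.1 and 17.5 CPM, and lay between 1.75 and 3.81 CPM in the other 6. Parp9 was 57.3, 46.9 and 36.1 CPM on normal diet, 56.9, 38.8 and 72.9 on high-fat diet, and 34.3, 25.1 and 38.3 with SCL. Parp9 was also above its own median in the 3 libraries where Dtx3l was high, but it varied less. Its highest value was in high-fat diet replicate 3, where Dtx3l was low at 3.74 CPM. Parp14, an ADP-ribosyltransferase, followed Dtx3l, with 36.4, 33.0 and 47.9 CPM in the high libraries and 7.62 to 16.0 CPM in the others.

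**Figure D2:**
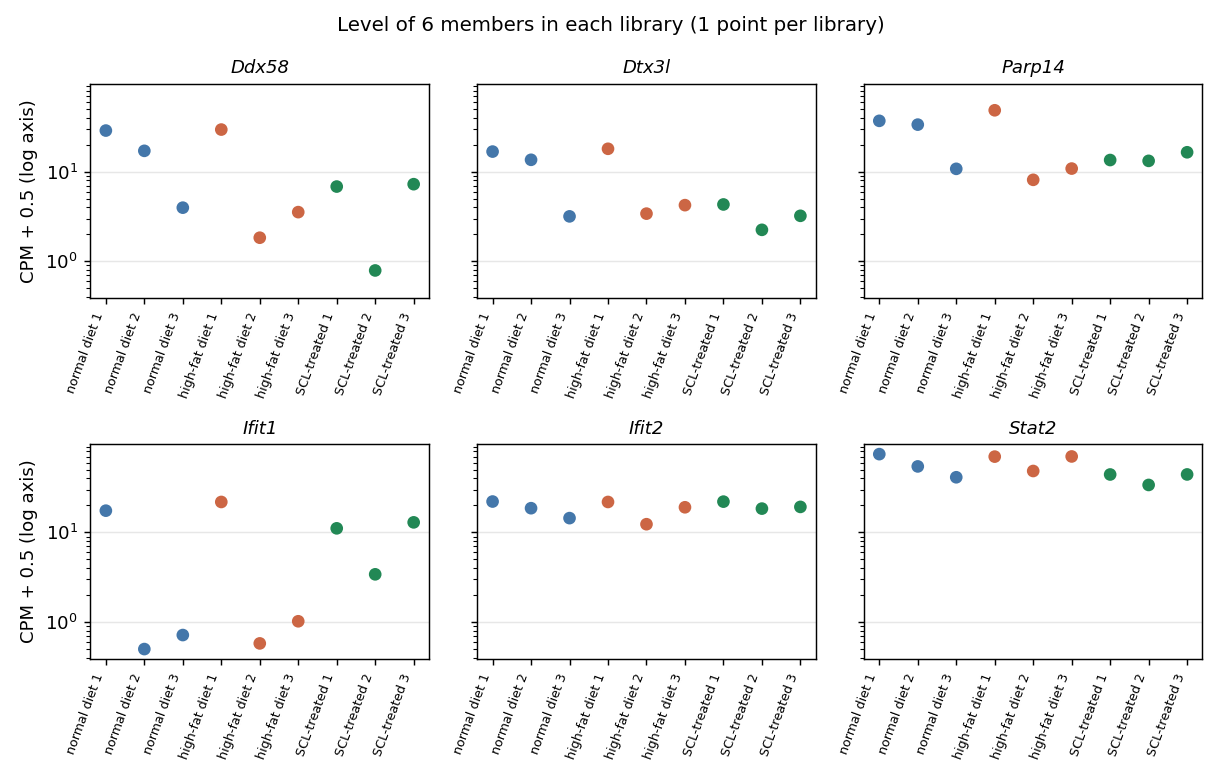
Points give CPM + 0.5 on a log axis for 6 members in each of the 9 libraries, coloured by group. Ddx58, Dtx3l and Parp14 are high in normal diet replicates 1 and 2 and high-fat diet replicate 1, Ifit1 is near the bottom in 4 libraries, and Ifit2 and Stat2 have the narrowest spans of the 6.

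The other members of this group had smaller spans than Dtx3l and Parp14. Isg15, the ubiquitin-like modifier itself, stood at 8.15 to 21.8 CPM, highest in SCL-treated replicates 3 and 1. Usp18, the protease that removes ISG15 and dampens receptor signalling, stood at 6.79 to 21.6 CPM. Herc6, the ISG15 ligase of mice, stood at 4.65 to 13.6 CPM, and Trim25, a ligase that acts with RIG-I, at 9.69 to 33.7 CPM.

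The ratio of 2 members' counts within a library does not depend on how libraries are scaled. These pairs were chosen after their values were seen. The Dtx3l to Parp9 ratio was 0.284 and 0.279 in normal diet replicates 1 and 2 and 0.308 in high-fat diet replicate 1. In the other 6 libraries it lay between 0.0513 and 0.111. The Ddx58 to Dhx58 ratio was 2.44, 1.35 and 2.01 in the same 3 libraries and between 0.0417 and 0.456 in the other 6. The 2 sets of libraries did not overlap in either ratio, and each set held both normal diet and high-fat diet libraries. The sets had been seen in Ddx58 and Dtx3l, which enter these ratios, so the ratios are no separate support for them.

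**Figure D3:**
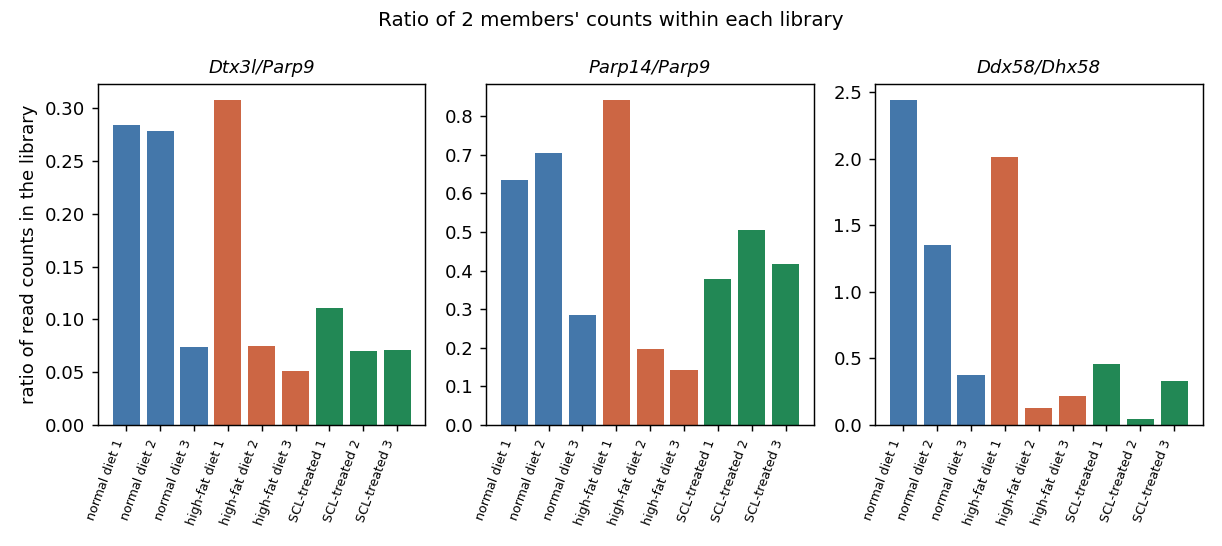
Bars give the ratio of 2 members' read counts in each library, on a linear axis from 0, coloured by group. Normal diet replicates 1 and 2 and high-fat diet replicate 1 have the 3 highest bars in each panel.

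Several of the members with this pattern were long genes. Dtx3l, Parp14 and Ifih1, with Stat2, Cmpk2 and Eif2ak2, were the 6 members in the longest of 4 equal length classes of the genes tested (over 3666 bases), with length taken from the deposited counts and FPKM. Their median deviation was 0.72, 0.50 and 1.04 on the log2 scale in normal diet replicates 1 and 2 and high-fat diet replicate 1, and -0.43 to 0.28 in the other libraries. All genes of that class deviated by 0.12, 0.07 and 0.16 in the same 3 libraries and by -0.16 to 0.10 in the others. These 3 libraries also had the lowest mitochondrial shares, 3.85% to 4.90%. Dtx3l, Parp14 and Ifih1 were genes in which the pattern had been seen. Of the other long members, Eif2ak2 was also highest in these libraries, but Cmpk2 deviated by -0.08 in high-fat diet replicate 1. Stat2 deviated by 0.54 in high-fat diet replicate 3, against 0.53 in replicate 1. Ddx58 was not among the longest genes. The part of length and of mitochondrial share in these levels was not tested.

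Ifit1, an effector that binds foreign RNA lacking a host cap, had the widest span of all members, 5.45 on the log2 scale. It had 279, 0 and 3 counts in the normal diet libraries, 409, 1 and 6 in the high-fat diet libraries, and 156, 30 and 142 in the SCL libraries. High counts were seen in normal diet replicate 1, high-fat diet replicate 1 and SCL-treated replicates 1 and 3. SCL-treated replicate 2 lay between, with 30 counts, and the remaining 4 libraries were near 0. The 0 in normal diet replicate 2 allows up to 0.173 CPM by counting error. Its neighbour in the family, Ifit2, stood at 21.6, 18.1 and 14.0 CPM on normal diet, 21.4, 11.9 and 18.6 on high-fat diet, and 21.6, 17.9 and 18.8 with SCL, the smallest span of all members (0.84). Ifit3 stood at 3.59 to 9.21 CPM. Ifit1bl, another gene of the family that was looked at after these values were seen, had 7 to 70 counts and could share reads with Ifit1.

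Several effectors were low together in high-fat diet replicate 2 and SCL-treated replicate 2. Mx2, a dynamin-like antiviral GTPase, stood at 50.6, 41.7 and 31.4 CPM on normal diet, 55.4, 18.1 and 34.7 on high-fat diet, and 51.4, 13.8 and 44.0 with SCL. Oas1a, which makes the oligoadenylate signal for RNA decay, stood at 16.4, 12.6 and 12.6 CPM, 16.2, 5.26 and 5.91 CPM, and 18.0, 4.17 and 28.3 CPM in the same order. Oasl, a relative of Oas1a, had its 2 lowest levels, 1.49 and 1.55 CPM, in those 2 libraries and stood at 3.83 to 9.88 CPM elsewhere. Mx1, the paralog of Mx2, was lowest in SCL-treated replicate 2 at 1.46 CPM and ranged up to 14.4 CPM. Oas2 had 0 to 22 counts in a library and was at 0 in SCL-treated replicate 2. Members of the Mx and Oas families share sequence, and how reads were divided between family members is not given in the sources used here.

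Bst2 was 206, 272 and 202 CPM on normal diet, 174, 153 and 56.6 on high-fat diet, and 171, 33.7 and 271 with SCL. All 3 high-fat diet libraries lay below the normal diet libraries, and the SCL libraries spanned both. The 2 lowest values were those of the libraries with 44.1% and 49.0% mitochondrial reads. Ifitm3 was 91.5, 90.1 and 62.2 CPM on normal diet, 35.9, 78.8 and 61.4 on high-fat diet, and 88.3, 62.6 and 123 with SCL, and the 3 groups overlapped. Rsad2 (viperin, which makes a chain-terminating nucleotide) and Cmpk2, its neighbouring kinase gene, were both low, at 1.16 to 5.92 CPM and 1.88 to 5.002 CPM. Eif2ak2 (PKR, which stops translation on double-stranded RNA) stood at 12.5 to 42.0 CPM, and Gbp2, a guanylate-binding protein induced by interferon gamma, at 6.36 to 16.3 CPM.

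Ifi44, a cytoplasmic protein induced by type I interferon, and Ifi27 ordered the libraries differently from most members. Ifi44 was 8.10, 9.33 and 11.8 CPM on normal diet, 11.5, 17.4 and 27.8 on high-fat diet, and 18.4, 27.2 and 18.1 with SCL. All SCL libraries lay above the normal diet libraries, and 1 high-fat diet library overlapped them. The 2 highest Ifi44 values were those of the libraries with 44.1% and 49.0% mitochondrial reads. Ifi27 was 425, 444 and 681 CPM on normal diet, 480, 810 and 1007 on high-fat diet, and 1015, 692 and 1047 with SCL. Again the SCL and normal diet libraries did not overlap. Rtp4, a chaperone of membrane receptors that is induced by interferon, was 29.2, 45.3 and 52.3 CPM, 38.6, 30.7 and 33.2 CPM, and 45.2, 9.02 and 24.4 CPM in the same order. Normal diet replicate 1 was the lowest of all libraries for both Ifi44 and Ifi27, while it was above the member's own median for 24 of the 32 members. The ratio of Ifi44 to Irf7 counts, a pair chosen after its values were seen, was 0.17 in that library and 1.57 in SCL-treated replicate 2.

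High-fat diet against normal diet asks what the diet did. The members' median fold change was -0.06 on the log2 scale, with 13 above 0 and 19 below, against a median of 0.03 for all genes tested. Between replicates the members' median deviation had a pooled SD of 0.35, larger than the size of this median. The 14 antiviral effectors had 11 below 0 and a median of -0.14. The 7 genes of the ISG15 and ubiquitin ligase systems had 4 above 0 and a median of 0.15. Ifi44 had the smallest p: its mean was 18.9 ± 8.25 CPM (SD, n = 3) on high-fat diet and 9.74 ± 1.87 CPM (SD, n = 3) on normal diet. The fitted log2 fold change was 0.95 with a standard error (SE) of 0.35 and an edgeR adjusted p = 0.91. With the log2 mitochondrial share as a covariate, its unadjusted edgeR p was not under 0.05. Nor was it without the libraries over 40% mitochondrial. Irf1 had a fitted difference of 0.48 (SE 0.25) and Ifi27 one of 0.57 (SE 0.37).

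The members next in rank by p, none with an unadjusted p under 0.05, were effectors. Bst2 had a fitted difference of -0.82 (SE 0.63) and was the only member whose 2 groups did not overlap in CPM (1 of 32, beside 10.6% of all genes). Ifitm3 had a fitted difference of -0.47 (SE 0.36), Oas1a one of -0.60 (SE 0.61) and Cmpk2 one of -0.39 (SE 0.38), while Gbp2 had one of 0.33 (SE 0.36). None passed the adjusted threshold, with an edgeR adjusted p of 0.91 or more for every member. Markers of cell types had fold changes of both signs in this comparison. All 8 Kupffer cell markers tested had a fold change below 0, with a summed level of 373 to 550 CPM on normal diet and 171 to 392 CPM on high-fat diet. All 8 hepatocyte markers were also below 0, with 151736 to 186833 CPM and 71863 to 146318 CPM. In the other lists, the markers below 0 were 5 of 6 for sinusoidal endothelium, 4 of 6 for stellate cells and 1 of 10 for T and NK cells. They were 1 of 4 for cholangiocytes, 0 of 4 for B and plasma cells, 0 of 3 for neutrophils and 0 of 2 for plasmacytoid dendritic cells. Neutrophil markers summed to 5.79 to 8.47 CPM on normal diet and 1.46 to 35.4 CPM on high-fat diet, and B and plasma cell markers to 4.78 to 14.9 CPM and 9.10 to 24.7 CPM. Their part in the members' levels was not tested, and in whole liver fewer cells of a type and less RNA per cell cannot be told apart.

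Leaving out high-fat diet replicate 1 changed this comparison most. The title of this library carries M2 where those of the other high-fat diet libraries carry M, and no meaning was assigned to this. The members' median fold change then stood at -0.49, and 6 of 32 members had an unadjusted p under 0.05, beside 20.6% of all genes. Ddx58 had a fitted difference of -2.90 (SE 1.07) and Dtx3l one of -1.70 (SE 0.66). Parp14 had one of -1.58 (SE 0.48) and Ifih1 one of -1.03 (SE 0.39). All of these were lower on high-fat diet. Each was high in the library left out, so their larger size here follows from that choice. With all 9 libraries the fitted differences were also below 0, at -0.52, -0.40, -0.27 and -0.18 in the same order. Ifi44 and Irf1 were higher, by 1.21 (SE 0.33) and 0.61 (SE 0.27). No adjusted p was under 0.05, the smallest being 0.127 for Ifi44. The sign of the median turned without high-fat diet replicate 2 (0.12), without normal diet replicate 1 (0.04), and with the log2 mitochondrial share as a covariate (0.32, with 27 of 32 members above 0).

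SCL-treated against high-fat diet asks what SCL added, as far as the labels give it. The members' median fold change was 0.01 on the log2 scale, with 19 above 0 and 13 below, against -0.03 for all genes. The roles had medians of either sign. Of the 7 genes of the ISG15 and ubiquitin ligase systems, 5 were below 0, with a median of -0.67, while 11 of the 14 antiviral effectors were above 0, with a median of 0.14. The difference between roles was not tested. This comparison shares the high-fat diet libraries with the first, where they enter with the opposite sign. High or low values in them therefore move the fold changes of both comparisons in opposite directions.

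Parp9 had the smallest p, with a mean of 32.6 ± 6.73 CPM (SD, n = 3) with SCL and 56.2 ± 17.1 CPM (SD, n = 3) on high-fat diet. Its fold change was -0.79 on the log2 scale (SE 0.31, edgeR adjusted p = 1.00). Stat2 had a fitted difference of -0.63 (SE 0.29) and Dtx3l one of -1.54 (SE 0.78). For Dtx3l, high-fat diet replicate 1 stood at 17.5 CPM, and the other 2 high-fat diet libraries, at 2.91 and 3.74 CPM, lay within the SCL range of 1.75 to 3.81 CPM. Herc6 had a fitted difference of -0.67 (SE 0.44) and Trim25 one of -0.63 (SE 0.43). On the upper side, Ifitm3 had a fitted difference of 0.64 (SE 0.36), Oas1a one of 0.88 (SE 0.61) and Cmpk2 one of 0.52 (SE 0.39). The edgeR adjusted p was 1.00 for each of these. In 3 members, Parp9, Stat2 and Cmpk2, the 2 groups did not overlap in CPM, beside 4.78% of all genes. Without SCL-treated replicate 2, 4 members had an unadjusted p under 0.05 (6.77% of all genes), and without high-fat diet replicate 2 also 4 (4.02%).

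**Figure D4:**
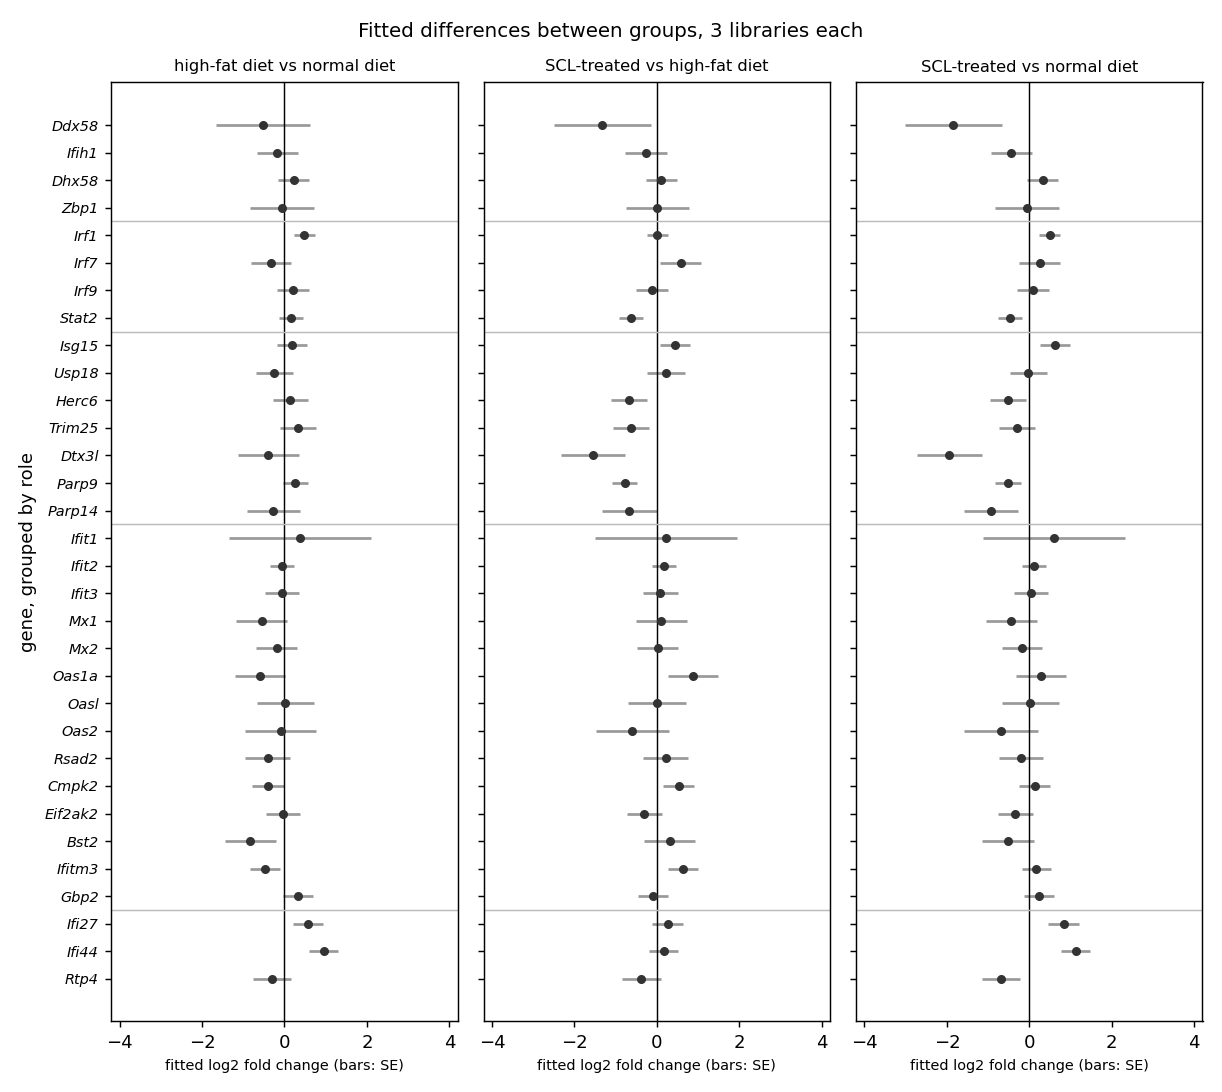
Points give each member's fitted log2 fold change in the 3 comparisons and bars its standard error, with genes in order of role. Most bars cross or lie near 0, and Ddx58 and Ifit1 have the widest.

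SCL-treated against normal diet shares the SCL libraries with the second comparison and the normal diet libraries with the first. The members' median was -0.04 on the log2 scale, with 15 above 0 and 17 below, against 0.03 for all genes. Ifi44 had a mean of 21.2 ± 5.17 CPM (SD, n = 3) with SCL against 9.74 ± 1.87 CPM (SD, n = 3). The fold change was 1.12 on the log2 scale (SE 0.35, edgeR adjusted p = 0.66), and DESeq2 gave an adjusted p of 0.28. Ifi27 had a fitted difference of 0.83 (SE 0.37), Irf1 one of 0.50 (SE 0.25) and Isg15 one of 0.62 (SE 0.36). In Ifi44, Ifi27 and Irf1 the groups did not overlap, 3 of 32 members beside 15.3% of all genes.

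Members on the lower side with SCL included the variable Dtx3l and Ddx58. Dtx3l had a fitted difference of -1.94 (SE 0.78) and Ddx58 one of -1.84 (SE 1.18). Parp9 had a fitted difference of -0.52 (SE 0.31) and Stat2 one of -0.48 (SE 0.29). The edgeR adjusted p of these and of the members on the higher side lay between 0.66 and 0.67. Normal diet replicate 3 lay within the range of the SCL libraries for Dtx3l and Ddx58, at 2.67 and 3.47 CPM. Without high-fat diet replicate 1, which enters this comparison only through the shared spread, filter and scaling, 4 members had an unadjusted p under 0.05, beside 12.7% of all genes.

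**Figure D5:**
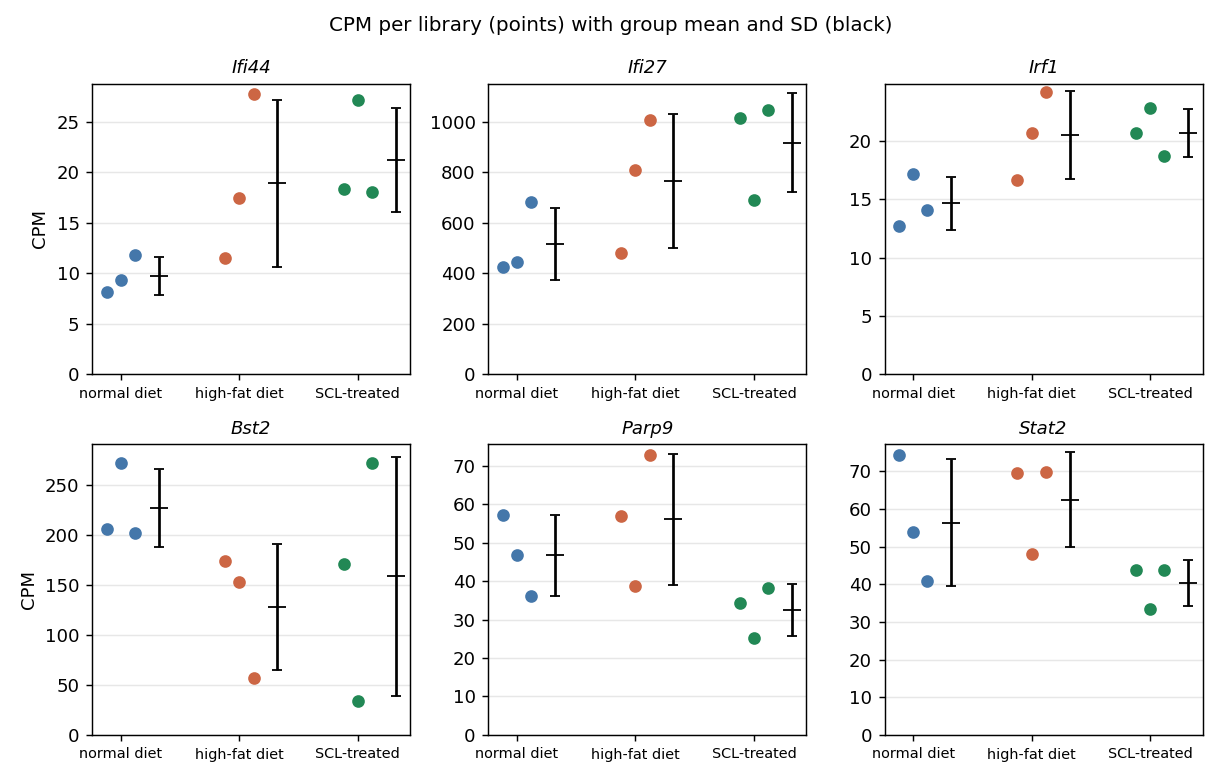
Points give CPM per library for 6 members, with each group's mean and SD (n = 3) in black. The SCL libraries lie above the normal diet libraries for Ifi44, Ifi27 and Irf1 and below the high-fat diet libraries for Parp9 and Stat2, and the high-fat diet libraries lie below the normal diet libraries for Bst2.

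Other genes of the pathway were taken from 6 lists, of which 76 genes were tested and 0 were called by edgeR in any comparison. At an unadjusted p under 0.05 there were 5 of them in high-fat diet against normal diet (4.32% of all genes), 2 in SCL-treated against high-fat diet (1.95%) and 4 in SCL-treated against normal diet (6.88%). Of 12 interferon genes, the ligands, 2 were in both tables. Ifng had at most 4 counts in a library and Ifnk at most 3, so ligand RNA was near or below what this depth can show. Of the 10 receptors, kinases and STATs tested, 9 were below 0 in high-fat diet against normal diet, with a median of -0.30. Among them, Ifnar1, a chain of the type I receptor, stood at 38.4, 41.2 and 36.6 CPM on normal diet, 34.7, 22.5 and 22.6 on high-fat diet, and 25.8, 23.2 and 25.9 with SCL. Its fitted difference was -0.54 (SE 0.25) on high-fat diet and -0.63 (SE 0.25) with SCL against normal diet. Stat3 had a fitted difference of -0.92 (SE 0.39) on high-fat diet. The edgeR adjusted p was 0.66 or more for both genes in every comparison.

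The negative regulators held the 1 gene of these 76 that DESeq2 called, in high-fat diet against normal diet, where it called 0.416% of all genes. Socs3, an inhibitor of JAK signalling, stood at 4.57, 8.24 and 3.76 CPM on normal diet, 1.25, 1.26 and 1.998 on high-fat diet, and 4.76, 3.49 and 2.28 with SCL. The high-fat diet libraries lay below all others. The fold change on high-fat diet was -1.88 (SE 0.46, edgeR adjusted p = 0.66), and DESeq2 gave an adjusted p of 0.036. With SCL against the same high-fat diet libraries Socs3 had a fitted difference of 1.23 (SE 0.46, edgeR adjusted p = 1.00). Among the sensors and their signalling proteins, Irf3, the factor that starts interferon transcription, had a fitted difference of 1.23 (SE 0.53) on high-fat diet. It stood at 29.9, 33.0 and 57.8 CPM on normal diet, 33.8, 86.4 and 162 on high-fat diet, and 58.4, 107 and 49.0 with SCL, so the groups overlapped and the 2 highest values were those of the libraries with the most mitochondrial reads. Of the 45 other interferon-stimulated genes tested, Cxcl9, a chemokine induced by interferon gamma, had a fitted difference of 1.04 (SE 0.41) on high-fat diet and Tor3a one of -1.52 (SE 0.53) with SCL against high-fat diet. The edgeR adjusted p was 0.91 for Irf3 and Cxcl9 and 1.00 for Tor3a.

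Markers of plasmacytoid dendritic cells, which make much of the type I interferon in the body, were low in every library. They summed to 0.914 to 2.89 CPM on normal diet, 2.35 to 2.91 on high-fat diet and 1.75 to 4.08 with SCL, and Cox6a2 was at 0 in 7 of the 9 libraries. T and NK cell markers summed to 41.2 to 56.2, 32.4 to 76.2 and 45.0 to 67.2 CPM. Kupffer cell markers summed to 171 to 501 CPM with SCL, where SCL-treated replicate 2, the library lowest for 16 members, was also the lowest of its group at 171 CPM. On normal diet the sums were 550, 533 and 373 CPM, and replicate 3, the lowest of its group for 25 members, also had the lowest sum. This did not hold on high-fat diet, where the sums were 280, 392 and 171 CPM. Replicate 2, the lowest of that group for 22 members, had the highest sum there. The part of these cells in the members' levels was not tested.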

How the data were processed

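Per the labels' protocols, liver RNA was isolated with Trizol and libraries were prepared with the NEBNext Ultra kit. The submitters' 2 deposited tables are of high-fat and normal diet libraries and of high-fat diet and SCL libraries. Per the file headers these hold raw counts per gene, a normalized signal (counts divided by a size factor), FPKM, and the authors' log2 fold changes, p-values and adjusted p-values. The submitters' processing notes name DESeq2 and the mouse build mm9, which was not taken as the build of these rat counts. Aligner, counter and strand setting: not given in the sources used here.

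The 15565 genes in both tables were analysed. The main test of the deposited counts was that of edgeR 4.0.16 (R 4.3.3): filterByExpr with a minimum count of 10, TMM scaling, 1 quasi-likelihood fit of all 9 libraries with group as the only term (6 residual degrees of freedom), and Benjamini-Hochberg adjustment over 12041 genes at 0.05. The standard error is the absolute log2 fold change over the square root of F. CPM use TMM-scaled totals, and log2 levels add 0.5 CPM. A count of 0 allows up to 3 counts, for counting error only. The fit was tested on simulated counts. Depth limits the precision of members with few counts. Chi-square over degrees of freedom was at least 38.5 for every pair of libraries in a group, so none was treated as a repeat.

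Same-numbered libraries correlated at -0.35 to 0.60, and 4 of 9 pairs were over 0.1, so the numbers were not taken to pair them. Alternatives were DESeq2 1.42.0 and its size factors, library totals, no filter, 6 libraries only, a replicate block, each library left out, a looser threshold of 0.1, and 3 treatments of the mitochondrial share. Promoter letters came from RefSeq's table for GRCr8. Members were named by level or range, and fold changes are given for up to 8 members per comparison with the smallest p, and for up to 3 genes per pathway list. The 6 members given without high-fat diet replicate 1 were chosen after their values were seen. The members, lists and tests were chosen with earlier results of these data known. Python 3.11.15 (pandas 2.3.3, matplotlib 3.10.9) drew the plots.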

Additional observations from a re-analysis of the deposited data

How the results depend on the processing

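No member was called at an adjusted p under 0.05 in any comparison under any alternative run, nor under 0.1. In high-fat diet against normal diet, the number of members above 0 ran from 8 to 27 over the settings. The fold changes named were chosen for the smallest p in these same data, which favours a steady sign. Of the fold changes named, all 144 values in each SCL comparison and 141 of 144 in high-fat diet against normal diet kept their sign. The exceptions were Bst2 (0.034) and Oas1a (0.090) with the mitochondrial share as a covariate, and Gbp2, at -0.16 to 0.58 with each library left out (-0.16 without high-fat diet replicate 2). The members' median in that comparison was 0.32 with the covariate and -0.49 to 0.12 with each library left out, lowest without high-fat diet replicate 1. Over all settings it ranged from -0.19 to 0.29 in SCL-treated against high-fat diet and from -0.25 to 0.26 in SCL-treated against normal diet, so its sign was not steady in any comparison.

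The number of genes called in high-fat diet against normal diet, 1 in the main analysis, was 50 with DESeq2, 2 without a filter or at 0.1, and 0 with library totals, with only the 6 libraries compared, or without the 2 libraries over 40% mitochondrial. It was 1 to 4 with each library left out (4 without normal diet replicate 3). In SCL-treated against high-fat diet it was 0, and 1 with DESeq2. In SCL-treated against normal diet it was 1, then 40 with DESeq2, 0 with library totals or without the 2 libraries, and 0 to 1 with each library left out, being 0 without any 1 of the SCL libraries, normal diet replicates 1 or 2, or high-fat diet replicate 2. The causes were not tested. With a replicate block, 1, 0 and 1 genes and 0 members were called, and the members' median in high-fat diet against normal diet was -0.21. The numbers share no stated animal or batch, and 3 of the 9 libraries correlated best with their own number. The depth limits Oas2 and Zbp1 most, with 93 and 145 counts in all 9 libraries together, and 3 libraries a group limit every test. Ifit1 also reached 0 counts in a library, but its counts ran up to 409.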
